A study of Mus musculus with 6 samples.

Results

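A set of 9 complement genes was followed in mouse macrophages, and 7 of them were expressed at a higher level when the aldehyde dehydrogenase ALDH2 was missing. By the same test 7.42% of all genes tested were higher. The set was chosen with earlier results of these libraries known, so its count is a description. The 9 genes are C1qa, C1qb, C1qc, C3, Cfb, Cfp and C4b, which encode complement proteins, and C3ar1 and C5ar1, which encode receptors. They were taken by name from the deposited gene tables after NCBI gene numbers were matched to symbols, and all 9 were found among 16871 gene numbers. A gene missing from a table was counted as 0 there, but each of the 9 was listed in all 6 tables.

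RNA was sequenced from bone marrow-derived macrophages of C57BL/6 mice aged 8 weeks, cultured for 7 days and then treated with oxLDL, an oxidised lipoprotein that turns macrophages into the foam cells of arterial plaques. The control group, LKO, held 3 libraries from cells with a knockout of the low-density lipoprotein (LDL) receptor, and the other group, DKO, held 3 libraries from cells with knockouts of both the LDL receptor and ALDH2. Both groups lacked the LDL receptor and both received oxLDL, so by the labels the groups differ in ALDH2 only. Any other difference between the groups, such as one of genetic background, cannot be told apart from ALDH2 loss. Untreated or wild-type cells were not analysed here. The labels do not give the dose or duration of oxLDL, whether the knockouts were body-wide or limited to some cells, or whether the libraries of a group came from separate animals, so the p-values measure the spread between these libraries, which may be technical.

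Complement is a cascade of plasma and tissue proteins that tags microbes, dying cells and debris for removal. The classical pathway starts when C1q, a bundle of A, B and C chains, binds a target and its attached proteases cleave C4 and C2. The alternative pathway amplifies C3 cleavage through factor B and is stabilised by properdin, and the fragments C3a and C5a act on G protein-coupled receptors on myeloid cells. The liver supplies most plasma complement, but macrophages are a main source of C1q and also make properdin, C3 and factor B. C1q and C3 fragments also mark dying cells for uptake, a task of macrophages in plaques.

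Each library held between 10760625 and 10987584 expected counts, the authors' estimates of reads per gene. The targeted gene Aldh2 stood at 241 ± 6.83 FPKM, a read level scaled to transcript length and library size, in the LKO libraries and at 7.13 ± 0.181 FPKM in the DKO libraries (mean ± SD over 3 libraries, here and below). Of 12 macrophage markers, 10 could be tested, and the defining receptor genes Adgre1 (1938 FPKM in LKO, 1755 in DKO) and Csf1r (365 and 484) were abundant in both groups, while the resident macrophage genes Timd4 and Vsig4 did not exceed 0.26 FPKM in any library. Replicate 1 of LKO lay apart from the other LKO libraries on the second principal component, which carried 13.2% of the variance, and it was the lowest LKO library for 7 of the 9 complement genes. Replicate 3 of DKO was the highest DKO library for 8 of the 9. Each fold change below was therefore also computed without each library in turn.

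In DKO 7 of the 9 genes rose, none fell (6.88% of all genes tested did), and Cfb and C3ar1 did not pass. The test was edgeR's quasi-likelihood test over 11809 genes with a Benjamini-Hochberg adjusted p of 0.05. All 9 genes passed the filter on low counts. Of all genes tested, 7.42% were called higher. The median log2 fold change of the 9 genes was 0.28 (1.22-fold), against 0.00018 over all genes tested. It was 0.37 (1.30-fold) over the 10 macrophage markers tested, of which 6 rose and 1 fell, so a rise of this size was not particular to the 9 genes. Deeply covered genes are called more easily, and 8 of the 9 genes had a mean of at least 1000 counts per library. Of those 8, 6 were called higher, against 13.4% of the 2337 tested genes with as many counts. In 7 of the 9 genes every DKO library lay above every LKO library, an arrangement found in 13.6% of the genes tested. These genes were chosen with earlier results of the same libraries known, so their count is a description. A bulk measurement cannot tell more RNA per cell from more cells of a kind.

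**Figure D1:**
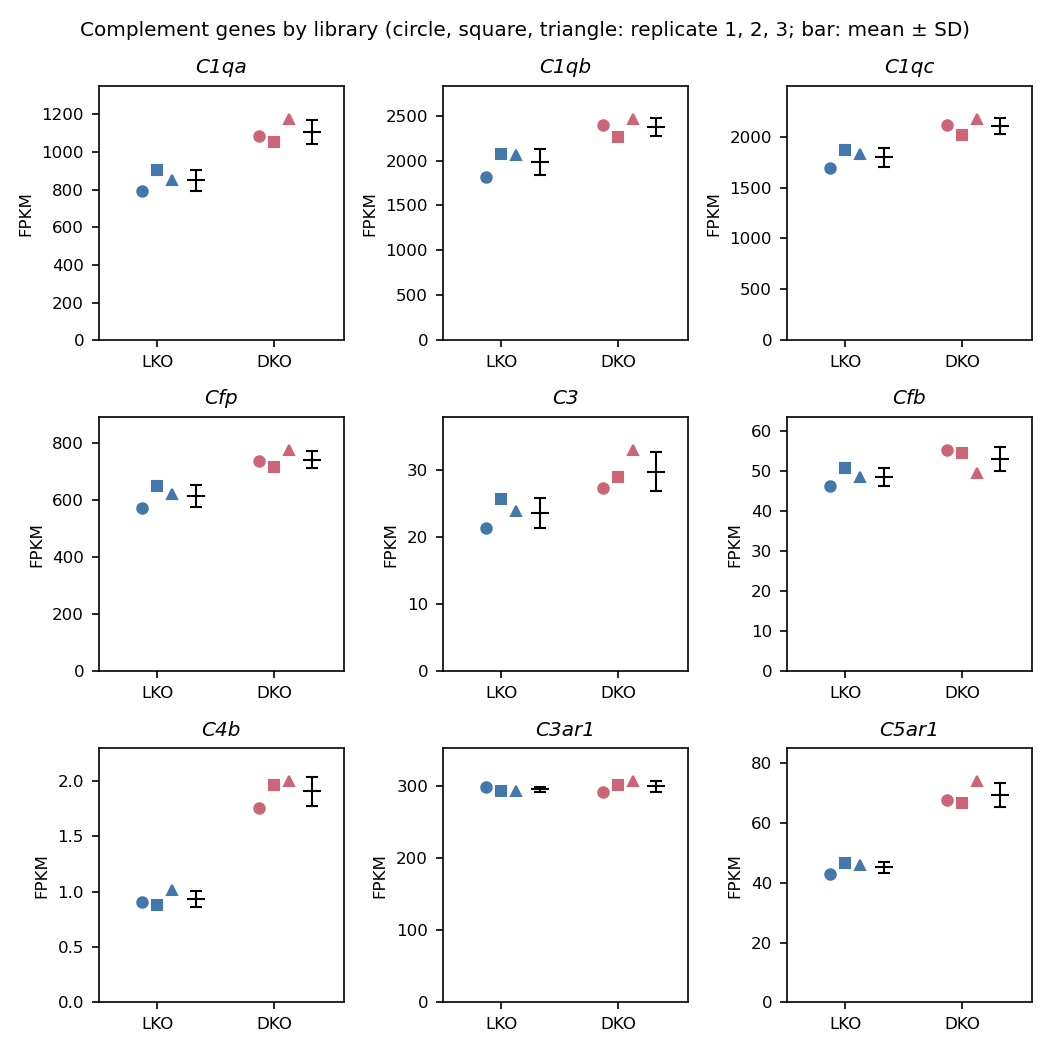
FPKM (vertical axes, each from 0) of the 9 complement genes in the 3 LKO (blue) and 3 DKO (red) libraries, with the mean and SD of each group beside the points. The groups are apart for 7 genes and overlap for Cfb and C3ar1.

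The C1q chains C1qb and C1qc were the most abundant of the 9 genes, and C1qa came next. C1q recognises antibody complexes and dying cells, and its A, B and C chain genes lie next to one another in the annotation, in the order C1qa, C1qc, C1qb. By FPKM, a level per transcript length, C1qb ranked between 15th and 20th of all genes in every library and C1qc between 17th and 22nd. C1qa ranked between 67th and 76th in LKO and between 34th and 43rd in DKO. The 3 chains together took between 0.450% and 0.507% of all counts in the LKO libraries and between 0.559% and 0.608% in the DKO libraries.

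The upstream sequences of C1qb and C1qc are shown because these neighbouring genes are among the most abundant in the libraries and rose together. That of C3 is shown as the central component of the cascade. Each is the 250 bases before the annotated start, 5′ to 3′ on the minus strand, from RefSeq on GRCm38.p6. That build is not the mm8 named for the deposited files, and the sequences were matched by gene. The table used held 6 of the 9 genes, without C1qa, Cfb and C4b. Capitals mark GAGGAA, a core bound by the myeloid factor PU.1, or its reverse complement in C1qb and C1qc, and TTGCNNAA, a core bound by C/EBP factors, in C3.
C1qb, chr4:136886201-136886450: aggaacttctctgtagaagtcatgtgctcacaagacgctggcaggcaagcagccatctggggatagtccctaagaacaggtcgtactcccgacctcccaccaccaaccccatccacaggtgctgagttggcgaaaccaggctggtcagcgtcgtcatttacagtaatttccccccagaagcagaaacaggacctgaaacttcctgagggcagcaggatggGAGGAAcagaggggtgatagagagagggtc
C1qc, chr4:136892915-136893164: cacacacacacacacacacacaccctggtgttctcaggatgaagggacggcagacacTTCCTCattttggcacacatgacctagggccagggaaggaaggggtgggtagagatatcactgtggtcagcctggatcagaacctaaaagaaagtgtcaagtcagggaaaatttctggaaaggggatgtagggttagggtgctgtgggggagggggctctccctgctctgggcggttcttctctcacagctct
C3, chr17:57228137-57228386: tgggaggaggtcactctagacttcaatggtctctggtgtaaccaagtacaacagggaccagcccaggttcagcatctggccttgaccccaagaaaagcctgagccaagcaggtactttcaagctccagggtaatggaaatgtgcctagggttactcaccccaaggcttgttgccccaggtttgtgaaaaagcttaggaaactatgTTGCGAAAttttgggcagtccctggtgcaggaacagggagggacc
Both motifs were searched on both strands. GAGGAA occurred once in C1qb, 30 bases before the start, and once in C1qc, 193 bases before it. It is common, and 23.3% of the 32851 upstream windows in the table hold it. TTGCNNAA occurred once, in C3, 45 bases before the start, and 9.56% of windows hold it. C3ar1, C5ar1 and Cfp held neither motif. No matches overlapped. These matches are letters in a window and no measure of binding.

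C1qa, which encodes the A chain, stood at 793, 906 and 849 FPKM in LKO replicates 1 to 3 and at 1087, 1052 and 1174 FPKM in DKO replicates 1 to 3. Every DKO library was above every LKO library, and replicate 1 was the lowest of LKO. The level rose 1.31-fold, from 849 ± 56.6 to 1104 ± 62.9 FPKM (a log2 fold change of 0.39 with an SE of 0.05, edgeR adjusted p = 8.09e-06). C1qb, the B chain, was at 1814, 2069 and 2059 FPKM in LKO and 2400, 2266 and 2460 FPKM in DKO. Again the groups did not overlap, with LKO replicate 1 lowest and DKO replicate 3 highest. C1qb rose 1.21-fold (a log2 fold change of 0.27 with an SE of 0.05, edgeR adjusted p = 0.000262). C1qc, the C chain, was at 1690, 1867 and 1833 FPKM in LKO and 2115, 2014 and 2170 FPKM in DKO. Its libraries fell in the same order as those of C1qb within DKO, and it rose 1.18-fold (a log2 fold change of 0.24 with an SE of 0.04, edgeR adjusted p = 0.000456). Limma on log2(FPKM + 1) with no filter on low values, a setting that called 2.52% of genes higher, did not call C1qb or C1qc (adjusted p = 0.116 and 0.115). With LKO replicate 1 left out, the log2 fold changes were 0.34 for C1qa, 0.21 for C1qb and 0.19 for C1qc.

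The ratio between chains within a library does not depend on its depth. C1qa was at 0.437, 0.438 and 0.412 of the C1qb level in LKO and at 0.453, 0.464 and 0.477 of it in DKO, so that all 3 DKO ratios were above the LKO ratios. The C1qc to C1qb ratio moved the other way by a smaller amount, from 0.908 ± 0.021 in LKO to 0.884 ± 0.0040 in DKO, with the nearest libraries at 0.890 and 0.889. C1qb exceeded C1qc in each of the 6 libraries, although the LKO ranges of the 2 genes overlap. With any one library left out, the C1qa to C1qb ratio was between 0.027 and 0.042 higher in DKO, and the DKO minus LKO difference of the C1qc to C1qb ratio was between −0.0329 and −0.0123. It was −0.0123 without LKO replicate 1, against −0.0240 with all libraries. The ratio differences are a description and carry no test. They are ratios of RNA and not of protein chains.

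**Figure D2:**
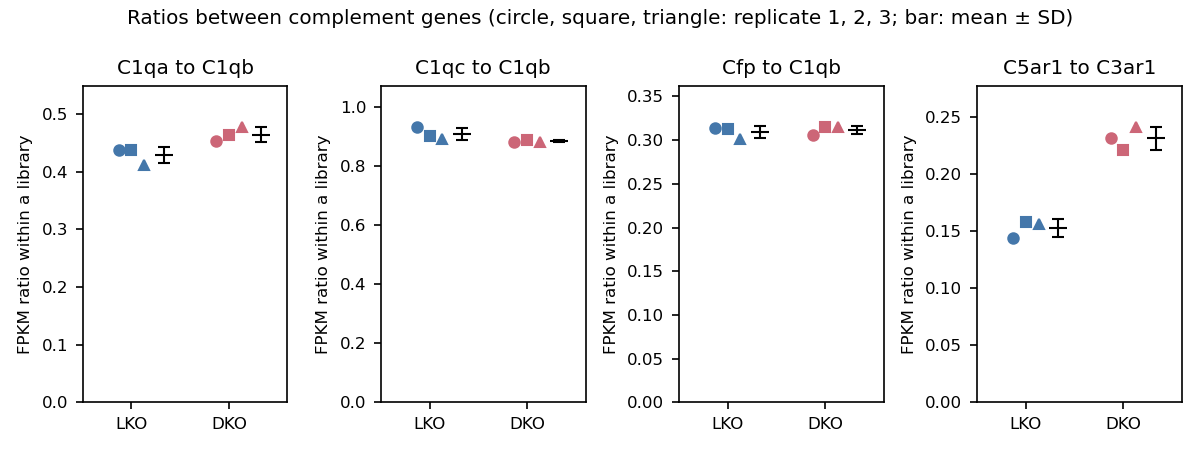
FPKM ratios within each library (vertical axes from 0) for C1qa to C1qb, C1qc to C1qb, Cfp to C1qb and C5ar1 to C3ar1, in LKO (blue) and DKO (red), with mean and SD. C5ar1 to C3ar1 separates the groups most widely, from 0.153 to 0.231, and Cfp to C1qb overlaps between them.

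Among the genes of C3 activation and the alternative pathway, Cfp and C3 rose and Cfb did not pass. Cfp encodes properdin, which stabilises the C3 convertase and is made by myeloid cells. It was at 570, 647 and 621 FPKM in LKO and 735, 713 and 774 FPKM in DKO, without overlap. The rise was 1.22-fold, from 613 ± 39.2 to 740 ± 30.6 FPKM (a log2 fold change of 0.28 with an SE of 0.05, edgeR adjusted p = 0.000165). The Cfp to C1qb ratio stayed between 0.302 and 0.315 in all 6 libraries, so Cfp and C1qb differed in parallel from library to library as well as between groups. Limma with no filter did not call Cfp (adjusted p = 0.0568).

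C3, the central component whose cleavage all pathways share, was at 21.3, 25.6 and 23.8 FPKM in LKO and 27.3, 28.8 and 32.9 FPKM in DKO. The highest LKO library and the lowest DKO library were close, at 25.6 and 27.3 FPKM, but did not cross. C3 rose 1.27-fold (a log2 fold change of 0.34 with an SE of 0.07, edgeR adjusted p = 0.00116), and the log2 fold change was between 0.26 and 0.41 with any one library left out. Limma with no filter did not call C3 (adjusted p = 0.11). Per transcript length C3 stood far below its receptor gene, at 0.080 ± 0.0080 of the C3ar1 level in LKO and 0.099 ± 0.0073 in DKO.

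Cfb encodes factor B, the protease of the alternative pathway convertase. It was at 46.3, 50.9 and 48.7 FPKM in LKO and 55.3, 54.5 and 49.7 FPKM in DKO. DKO replicate 3 lay within the LKO range, and the groups overlapped. Cfb did not pass (log2 fold change 0.14, 95% interval 0.029 to 0.25, edgeR adjusted p = 0.0903). Without DKO replicate 3 it did pass (edgeR adjusted p = 0.0471). Cfb was the exception to the order of the DKO libraries, in that replicate 3, the highest DKO library for the other 8 genes, was its lowest. C2, the classical pathway protease whose gene lies next to Cfb, was read at only 2, 8 and 6 counts in LKO and 12, 11 and 15 counts in DKO and did not pass (edgeR adjusted p = 0.0755); it was named after its values were seen.

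C4b encodes C4, the classical pathway protein that C1s cleaves, and it had the largest fold change and the lowest level of the 9 genes. It was at 0.91, 0.88 and 1.02 FPKM in LKO and 1.76, 1.97 and 2.00 FPKM in DKO. All DKO libraries were well above all LKO libraries, on expected counts between 52.6 and 60.3 in LKO and between 106 and 120 in DKO. C4b rose 2.04-fold (a log2 fold change of 1.03 with an SE of 0.14, edgeR adjusted p = 1.52e-05). Limma gave a log2 fold change of 0.59, since adding 1 to each FPKM shrinks the differences of genes at this level. Of all genes tested, 0.601% were called at 2-fold higher or more.

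The C4b counts are shared with a near-identical copy. The annotated transcripts of C4a, also called Slp, hold 35.2% of the 50-base windows of the longest C4b transcript, and the files give C4b fractional counts in 5 of 6 libraries. C4b and C4a counts summed to 59, 56 and 66 in LKO and to 109, 128 and 120 in DKO, whole numbers to within 0.01. The single values were fractional in every library but DKO replicate 3. C4a alone held at most 9.63 counts in a library, so the sums separate the groups as C4b does. How the reads divide between the 2 copies is uncertain.

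Of the genes of the 2 anaphylatoxin receptors, C5ar1 rose and C3ar1 did not pass. C5ar1 encodes the receptor for C5a, which draws neutrophils and macrophages to inflamed tissue. It was at 43.1, 46.5 and 46.1 FPKM in LKO and 67.6, 66.6 and 74.0 FPKM in DKO. The groups were widely apart, with a gap of more than the spread of either group between 46.5 and 66.6 FPKM. C5ar1 rose 1.54-fold, from 45.2 ± 1.84 to 69.4 ± 4.01 FPKM (a log2 fold change of 0.62 with an SE of 0.05, edgeR adjusted p = 2.88e-08), and the log2 fold change was between 0.57 and 0.66 with any one library left out. C4b and C5ar1 were the 2 genes of the 9 that were at least 1.5-fold higher, against 1.8% of all genes tested that were called at this size.

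C3ar1 encodes the receptor for C3a. It was at 299, 294 and 294 FPKM in LKO and 292, 302 and 307 FPKM in DKO, with overlapping groups. Its log2 fold change was 0.03 with a 95% interval of −0.04 to 0.11 (edgeR adjusted p = 0.652). As a fold change the interval runs from 0.969 to 1.08, given the spread between these libraries. The 95% interval of C5ar1, 0.51 to 0.74, lies wholly above that of C3ar1. Within a library the C5ar1 to C3ar1 ratio was 0.144, 0.158 and 0.157 in LKO and 0.232, 0.221 and 0.241 in DKO, without overlap; this ratio was not tested. C5ar2, which encodes the second C5a receptor and lies beside C5ar1 in the annotation, did not pass, at means of 5.24 ± 0.127 (LKO) and 6.06 ± 0.621 FPKM (DKO) with an edgeR adjusted p of 0.113; it was named after its values were seen.

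The order of the 9 levels was nearly the same in both groups. C1qb stood highest, followed by C1qc, C1qa, Cfp and C3ar1, then Cfb and C5ar1, then C3 and last C4b. The LKO ranges of C1qb and C1qc overlapped, as did those of Cfb (46.3 to 50.9 FPKM) and C5ar1 (43.1 to 46.5). In each LKO library C5ar1 was below Cfb, at 0.930 ± 0.016 of its level, and in each DKO library above it, at 1.31 ± 0.154, so this pair changed places.

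Other genes of the system were measured beside these. Of 53 further complement names listed, 37 were in the files and 23 could be tested, and of those 5 rose, 1 fell and 17 did not pass, where 7.42% of all genes tested rose and 6.88% fell. The median log2 fold change of the 23 genes was 0.16. Split by role the lists are short, so their counts are a description. Among membrane-bound regulators, which protect host cells, 2 of 5 tested rose. Cd59a, a blocker of the terminal pore, went from 4.05 ± 0.337 to 6.53 ± 0.707 FPKM (edgeR adjusted p = 0.000705). Cd55, which speeds convertase decay, went from 88.8 ± 3.31 to 98.5 ± 1.69 FPKM (edgeR adjusted p = 0.0172). The Cd55 call was lost without LKO replicate 2 or 3 or DKO replicate 1 or 2 (edgeR adjusted p up to 0.0935) and in all 5 limma fits (adjusted p 0.0522 to 0.0706).

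Over all genes tested 7.42% rose and 6.88% fell. Of 8 tested genes of classical and lectin recognition, 2 rose and none fell. They were Colec12, a scavenger-type collectin (10.4 ± 0.408 to 12.3 ± 1.002 FPKM, edgeR adjusted p = 0.0174), and Fcna, a ficolin (2.10 ± 0.735 to 3.34 ± 0.387 FPKM, edgeR adjusted p = 0.0461). Neither was called by DESeq2 (adjusted p = 0.0731 and 0.16) or by any of the 5 limma fits. Limma gave an adjusted p of 0.0745 to 0.139 for Colec12 and of 0.073 to 0.196 for Fcna. With no count filter edgeR did not call Fcna either (edgeR adjusted p = 0.0626). Colec12 also lost its call without LKO replicate 2, DKO replicate 2 or DKO replicate 3 (edgeR adjusted p up to 0.104), and Fcna without any library but LKO replicate 2 (up to 0.214). The protease genes C1ra and C1s1 did not pass and stayed at 2.90 FPKM or less in every library, and both were named after their values were seen. Of the terminal pathway, C8g, the only gene that could be tested, did not pass and was also named after its values were seen, while Hc (the gene of C5), C7, C8b, C9 and the alternative pathway protease gene Cfd were not listed in any of the 6 tables.

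Of 8 further receptor genes tested, 1 rose and 1 fell, which is near the shares over all genes tested (7.42% and 6.88%). Cd93, a surface receptor once proposed to bind C1q, rose from 36.4 ± 1.94 to 46.0 ± 1.10 FPKM (a log2 fold change of 0.35 with an SE of 0.05, edgeR adjusted p = 1.59e-05). C1qbp, a C1q-binding protein found largely in mitochondria, fell from 40.1 ± 0.115 to 32.6 ± 2.28 FPKM (a log2 fold change of −0.29 with an SE of 0.07, edgeR adjusted p = 0.00373). Itgam and Itgb2, whose products pair as complement receptor 3 and take up C3-tagged particles, did not pass, with log2 fold changes of −0.06 (95% interval −0.14 to 0.024) and −0.03 (−0.11 to 0.044), and were named after their values were seen. In the wider family of proteins with a C1q domain, 2 of 6 tested genes rose. C1qtnf6 went from 3.11 ± 0.176 to 5.01 ± 0.070 FPKM (edgeR adjusted p = 0.000201) and Emilin1, a matrix glycoprotein, from 22.1 ± 0.547 to 25.6 ± 1.11 FPKM (edgeR adjusted p = 0.00765, but 0.0717 without DKO replicate 3).

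**Figure D3:**
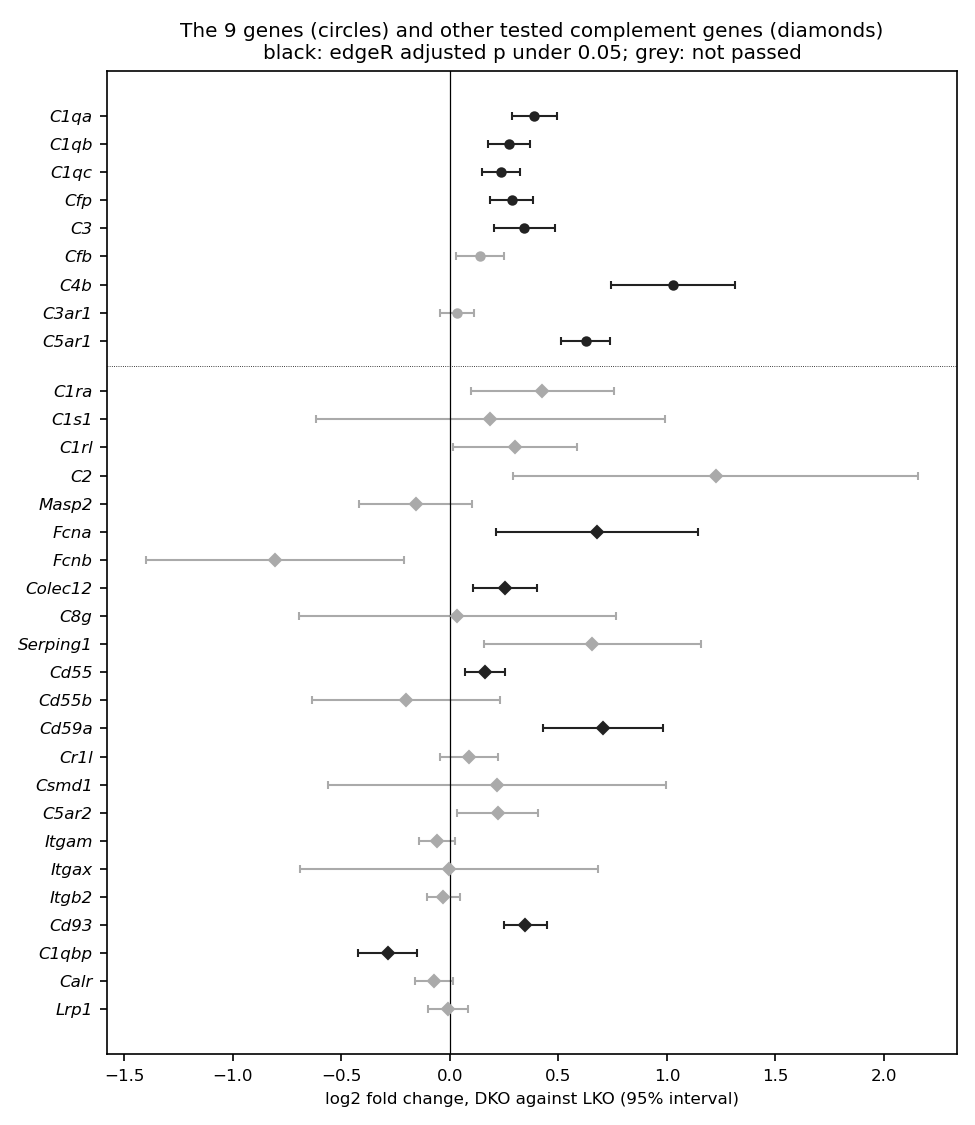
Log2 fold change of DKO against LKO with its 95% interval (horizontal axis) for the 9 genes (circles) and the 23 other complement genes tested (diamonds), black where the edgeR adjusted p was under 0.05. Among the called genes C4b at 1.03, Cd59a at 0.70, Fcna at 0.68 and C5ar1 at 0.62 lie farthest right, and C1qbp at −0.29 is the called gene on the left.

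The genes whose levels most resembled C1q were found by Pearson's r between log2(FPKM + 1) and the mean of the 3 C1q chains over the 6 libraries, among 5657 other genes with a mean of at least 10 FPKM. The 5 closest were Rab11fip5 (r = 0.999), Lman2 (r = 0.999), Ly6e (r = 0.993), Ubtd1 (r = 0.993) and Lgals9 (r = 0.991). With 6 libraries in 2 groups, much of such a likeness is the difference between the groups that these genes share, and no p is attached. Rab11fip5, an adaptor of recycling endosomes, rose 1.22-fold, as C1qb did (1.21-fold), while Ly6e, an interferon-induced surface protein, rose 1.49-fold. Lman2, a cargo lectin of the secretory route, followed the same library order with a far smaller difference that did not pass (log2 fold change 0.09, edgeR adjusted p = 0.203).

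Markers of other cell types differed between the same libraries. Of 18 stromal markers 15 were tested, and 8 rose and none fell in DKO. Their summed level was 51.5 to 56.5 FPKM in LKO and 80.1 to 108 FPKM in DKO. Stromal cells also express C4b and C3. The collagen genes Col1a1 (9.41 ± 1.26 FPKM in LKO, 18.6 ± 2.53 in DKO) and Col1a2 (10.7 ± 0.505 and 21.3 ± 3.13) were among those that rose, while Lum, Pdgfra and Thy1 did not exceed 0.48 FPKM in any library and none was at 0. By library, the stromal sum was 51.5, 54.1 and 56.5 FPKM in LKO and 94.6, 108 and 80.1 FPKM in DKO. Within DKO, C4b and C3 were highest in replicate 3, the lowest in stromal markers, but the summed C4b and C4a counts were highest in replicate 2, the highest in stromal markers. Within LKO, C4b and the summed C4 counts were highest in replicate 3, which also had the highest stromal sum, and C3 was highest in replicate 2. The part of these cells in the rises of C4b and C3 was not tested.

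Markers of neutrophils, which express C5ar1 and Cfp, differed in the other direction. Of 16 neutrophil markers tested (17 listed, of which Fcnb is also in the lectin list), 9 fell and none rose, and their summed level was 642 to 700 FPKM in LKO and 428 to 467 in DKO. Csf3r, one of the markers, was between 37.7 and 43.8 FPKM in all libraries, and Ly6g did not exceed 0.93 FPKM. C5ar1 and Cfp rose in the libraries where the summed neutrophil markers were lower, and the part of neutrophils in their levels was not tested. Of 5 lymphocyte markers tested 4 fell, with sums of 104 to 116 FPKM in LKO and 80.6 to 88.2 in DKO. Among macrophage markers, 6 of 10 tested rose and 1, Adgre1, fell, with sums of 9494 to 10229 FPKM in LKO and 10758 to 11977 in DKO. The difference in this sum was carried by the lysozyme gene Lyz2 (6105 ± 337 and 7616 ± 580 FPKM). Without it the sums overlapped, at 3762 to 3878 FPKM in LKO and 3756 to 3876 in DKO, an alternative chosen after seeing the data. That overlap holds changes in both directions, since Adgre1 fell from 1938 to 1755 FPKM while genes of lower level rose. These were Csf1r (1.33-fold), Mrc1 (1.51-fold), Fcgr1 (1.43-fold), Mertk (1.40-fold) and Cd163 (1.36-fold). Whether the 7 complement genes rose with a shift in cell make-up was not tested. Sums of dendritic cell markers (240 to 285 FPKM in LKO, 321 to 358 in DKO) were carried by the widely expressed gene Bst2. Clec9a and Cd209a did not exceed 0.19 FPKM in any library, but Batf3 was between 18.7 and 28.0 FPKM. Ccr7 reached 2.12 FPKM and Xcr1 0.83 FPKM. Of 6 dendritic cell markers tested, 1 rose (Bst2) and 1 fell (Ccr7). Mast cell and basophil markers summed to at most 1.12 FPKM in any library. Those of the erythroid and megakaryocyte list summed to 99.0 to 107 FPKM in LKO and 116 to 133 in DKO, almost all of it from Pf4, and 1 of 3 tested, Pf4, rose.

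**Figure D4:**
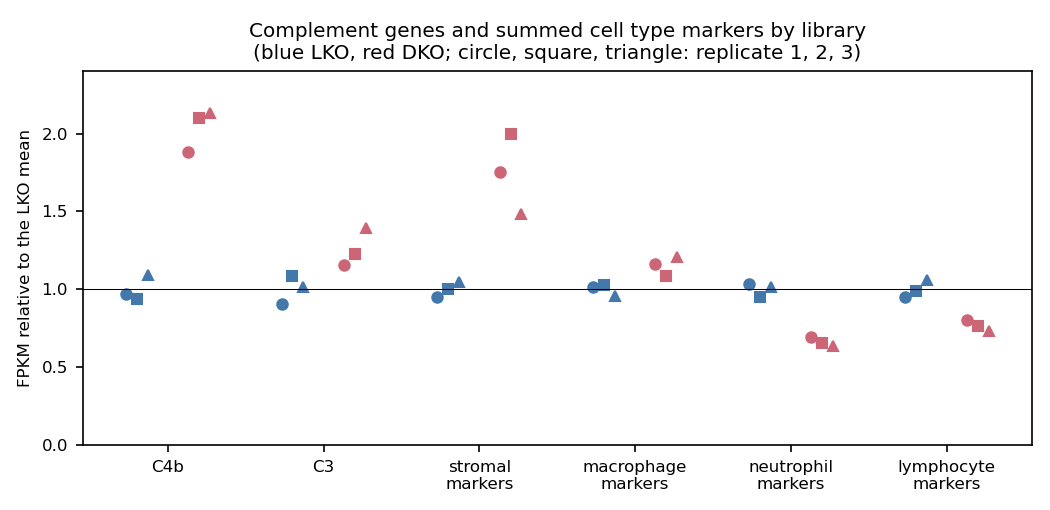
Levels relative to the LKO mean (vertical axis from 0, line at 1) of C4b and C3 and of the summed stromal, macrophage, neutrophil and lymphocyte markers, with LKO libraries in blue and DKO libraries in red. In DKO, C4b, C3 and the stromal and macrophage sums lie above the LKO libraries, the macrophage sum through Lyz2, and the neutrophil and lymphocyte sums lie below them.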

How the data were processed

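Gene tables of 6 RNA-seq libraries (3 LKO, 3 DKO, grouped by their titles) were used as deposited. Their columns, per the file headers, are transcript length, expected count and FPKM. The expected count is an estimate, made by the authors, of the reads that belong to a gene, with no scaling to depth. The deposited FPKM adjusts it for length and library size. Bowtie 0.12.2 and mm8 appear in the submitters' processing notes. How reads were counted, their length and whether strand was used is not given in the sources used here. No table lists an FPKM below 0.01.

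Symbols came from a RefSeq table of GRCm38.p6, which matched 16832 of 16871 gene numbers. The members, lists and tests were chosen with earlier results of these data known. Expected counts were rounded and fitted in R 4.3.3 with edgeR 4.0.16 (filterByExpr, TMM, quasi-likelihood test, no block), with p-values adjusted by Benjamini-Hochberg over 11809 genes at a threshold of 0.05. SEs and 95% intervals come from the fold change and its F statistic. An exact permutation test of 3 against 3 libraries cannot go below p = 0.1 and was not used. Other fits were DESeq2 1.42.0, edgeR under DESeq2 size factors, under no count filter and under a replicate block, and limma 3.58.1 on log2(FPKM + 1) for genes of at least 1 FPKM in 3 libraries. Limma was also run on TPM, with no filter and with 0.1 or 5 as the pseudocount, and edgeR with each library left out. The fits were also run on simulated counts that gave every gene the same dispersion, so this run is no test of the calls made here. Chi-square per degree of freedom of counts was 1.68 to 3.71 for library pairs of a group and 8.30 to 14.9 for pairs across groups. No library was thus an exact copy of another, but these values cannot tell separate animals from separate preparations of the same cells.

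Genes named are Aldh2, the 9 members, list members that passed (up to 5 of smallest p per direction) and the 5 genes closest to C1q. Cell type markers, and genes said to be named after their values were seen, come in addition, as do C4a and the complement genes absent from all tables. Some listed genes are not reported here and were left out of the list counts and sums.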

Additional observations from a re-analysis of the deposited data

How the results depend on the processing

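Of the 9 complement genes, 7 were called by edgeR, and 7 in every other fit except limma without a filter on low values, which called 3 (C1qa, C4b and C5ar1), and the fit without DKO replicate 3, which called 8; leaving out single libraries gave 7 to 8. Over all genes, 1689 were called by edgeR, 807 by limma without a filter and 1119 by limma with a pseudocount of 0.1, and between 1175 and 1481 without one library. With the replicate number as a block edgeR called 1553 genes and the same count of 7 complement genes. Replicate numbers are not said to mark a shared animal or day, and same-numbered libraries did not deviate together (correlations of −0.0087, −0.0957 and −0.0002), so the block is a check only. Of 401 refitted values over 27 named genes, 364 kept direction and side of the threshold, 36 lost their call, 1 gained one and none changed direction. The causes were not tested. With any one library left out, the DKO minus LKO difference was 0.02725 to 0.0416 for the C1qa to C1qb ratio, −0.03293 to −0.01229 for C1qc to C1qb and 0.04557 to 0.05959 for C1qa to C1qc, alternatives chosen after seeing the data. So was the macrophage marker sum without Lyz2, whose DKO minus LKO difference was −22.08 FPKM with overlapping groups, against 1489 FPKM with Lyz2. Depth limits genes of few counts, such as C2 (2 to 15 counts per library).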
